A study of Mus musculus with 8 samples.

Results

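Outside the CCR4–NOT complex, mouse oocytes carry mRNAs of several other enzymes that shorten or trim RNA 3′ ends. The 8 genes examined here, Pan2, Pan3, Parn, Toe1, Noct, Angel1, Angel2 and Pde12, were chosen by gene symbol as the deadenylases outside CCR4–NOT, out of 46078 genes in the count table. All 8 were found, Noct under its older symbol Ccrn4l, and all 8 passed the filter on low counts. RNA-seq was performed on fully grown germinal vesicle (GV)-stage oocytes in 8 libraries of 100 oocytes each, 4 from Zp3-Cre control mice and 4 of the genotype CNOT7&8 KO. Both groups carry Cre under the oocyte promoter Zp3, and the KO oocytes in addition carry floxed Cnot7 and Cnot8. The females had a C57BL/6J background, were 4 weeks old and had received PMSG. The number of mice behind a library is not given in the sources used here, so p-values measure the spread between these libraries.

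Deadenylases remove the poly(A) tail of mRNAs, a step that precedes decay and, in oocytes, also lowers translation of stored maternal mRNAs. The enzymes fall into a DEDD nuclease family, to which Pan2, Parn and Toe1 belong together with Cnot7 and Cnot8, and an exonuclease-endonuclease-phosphatase (EEP) family, to which Noct, Angel1, Angel2 and Pde12 belong together with Cnot6 and Cnot6l. Pan3 is no nuclease but a pseudokinase that binds Pan2 and brings it to poly(A)-binding proteins. Fully grown GV oocytes are transcriptionally quiet and live on mRNAs stored during growth. Not every listed enzyme acts mainly on mRNA tails: Toe1 and Parn trim small noncoding RNAs, Noct is a phosphatase of NADP(H), Angel2 removes cyclic phosphates from RNA ends, and Pde12 acts in mitochondria and degrades 2′-5′ oligoadenylates.

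The study addressed mRNAs with a cytoplasmic polyadenylation element (CPE), so the members' own longest annotated 3′UTRs were searched on the mRNA strand for the CPE hexamer TTTTAT, in DNA letters. It occurred in 5 of 8 members, with 5 copies in Pde12, 4 in Angel2, 3 in Pan2, 3 in Pan3 and 2 in Noct, and in none of Parn, Angel1 and Toe1. Among 15125 tested protein-coding genes with a 3′UTR of at least 50 bases, 56.2% carried it. The 3′UTRs differed in length, from 433 bases in Toe1 and 588 in Pan2 to 5567 in Pde12, where the median of all these genes was 1119. In Pan2, the 3 copies lay 66, 31 and 12 bases before the annotated end, and the second began 8 bases before a polyadenylation signal AATAAA. In the other carriers, the last copy lay farther from the end, at 154 bases in Angel2, 355 in Noct, 555 in Pan3 and 2159 in Pde12. The sites are printed because they are the elements the study's question turns on, with the element in capitals and 12 bases on each side (GENCODE vM21, GRCm38, mRNA strand). They are the Pan2 copies at chr10:128321270-128321299, chr10:128321305-128321334 and chr10:128321324-128321353 (plus strand), and the last copies in Pan3 at chr5:147547924-147547953 (plus), Angel2 at chr1:190946791-190946820 (plus), Noct at chr3:51251272-51251301 (plus) and Pde12 at chr14:26662105-26662134 (minus).
Pan2 copy 1: tctcgagttttgTTTTATtttttaaaaatt
Pan2 copy 2: taaaacagcatgTTTTATaaaataaaagta
Pan2 copy 3: aaataaaagtatTTTTATctcattagaaaa
Pan3 copy 3: tttttagctttgTTTTATatttatttttca
Angel2 copy 4: cctttgtaaagtTTTTATatcctgatgaag
Noct copy 2: ctgggatgtgctTTTTATaagtagctttag
Pde12 copy 5: aagtaggaaaggTTTTATtgcttcctttaa

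Counts per library summed to between 14943671 and 44092144 in control and between 8639444 and 26784110 in KO. Values are CPM, counts divided by a library size that edgeR's TMM method scaled. In KO, the whole-gene count of Cnot8 was at 21.0% of its control level, and that of Cnot7 at 77.1%. These are counts of mRNA, and the paper's immunoblot found both proteins depleted in KO oocytes. The 14 oocyte markers were all detected and summed to 24160 to 25312 CPM in control and 21865 to 26048 CPM in KO libraries, before TMM scaling. With TMM scaling, 8 of the 14 were lower and 2 higher at an adjusted p of at most 0.05, with a median log2 fold change of -0.34, in the direction of the members that were lower. Their part in the members' values was not tested. The 12 granulosa and cumulus cell markers summed to 119 to 148 CPM in control and 239.6 to 301 CPM in KO. Of the 11 that were tested, 6 were upregulated at least 2-fold, beside 23.8% of all tested genes. Fshr, Kitl and Nr5a2 were higher in every KO library than in any control library. Inha, Inhba and Fst were not. In KO replicate 4 they had 4.77, 1.63 and 1.53 CPM, where control means were 6.86, 2.50 and 1.58 CPM. Nr5a2 had the highest CPM of the list in KO, at 122 ± 8.26 CPM against 56.6 ± 9.28 CPM in control (SD). Cyp19a1, the aromatase and the granulosa marker with the highest CPM in control, was lower, at 58.5 ± 8.01 CPM in control and 31.3 ± 6.02 CPM in KO (-0.90 on the log2 scale, adjusted p of 0.000507 in edgeR's quasi-likelihood test). The defining marker Foxl2 had at most 3 counts in each library. Of 9 blood cell markers, the 4 globin genes had no count and Alas2 had at most 3. The list summed to 0.748 to 1.72 CPM in control and 3.47 to 6.19 CPM in KO. Of the 3 that were tested, 2 were upregulated at least 2-fold, Cd68 and Ptprc, beside the same 23.8%. Cd68 rose by 1.46 and Ptprc by 2.53 on the log2 scale (adjusted p of 0.00141 and 0.0108 in edgeR's quasi-likelihood test). Ptprc had only 1 to 18 counts per library, and its groups overlapped. Adgre1 did not pass the test. More attached somatic cells and more of these transcripts per cell, the oocyte included, cannot be told apart in such libraries. The cause of the higher sums was not tested.

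Among the 8 mRNAs, 2 were upregulated in CNOT7&8 KO oocytes and none was downregulated by the criteria for DEGs, a change of at least 2-fold with an adjusted p no higher than 0.05. Toe1 rose 3.37-fold and Angel1 2.07-fold. The share, 2 of 8 (25%), stood beside 23.8% of all 19241 tested genes called higher and 6.56% called lower. Without the 2-fold threshold, Pan3, Pan2 and Angel2 were lower, 3 of 8 (37.5%) beside 24.1% of all genes, and the same 2 were higher beside 31.2%. Noct, Parn and Pde12 did not pass the test. By the values alone, Toe1 and Angel1 were higher in every KO library than in any control library, beside 27% of all genes, and Pan3 and Angel2 were lower, beside 21.4%. The median log2 fold change of the 8 was -0.21, where that of all tested genes was 0.12. Adjusted p-values are from edgeR's quasi-likelihood test over all tested genes, and n = 4 libraries per group throughout.

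**Figure D1:**
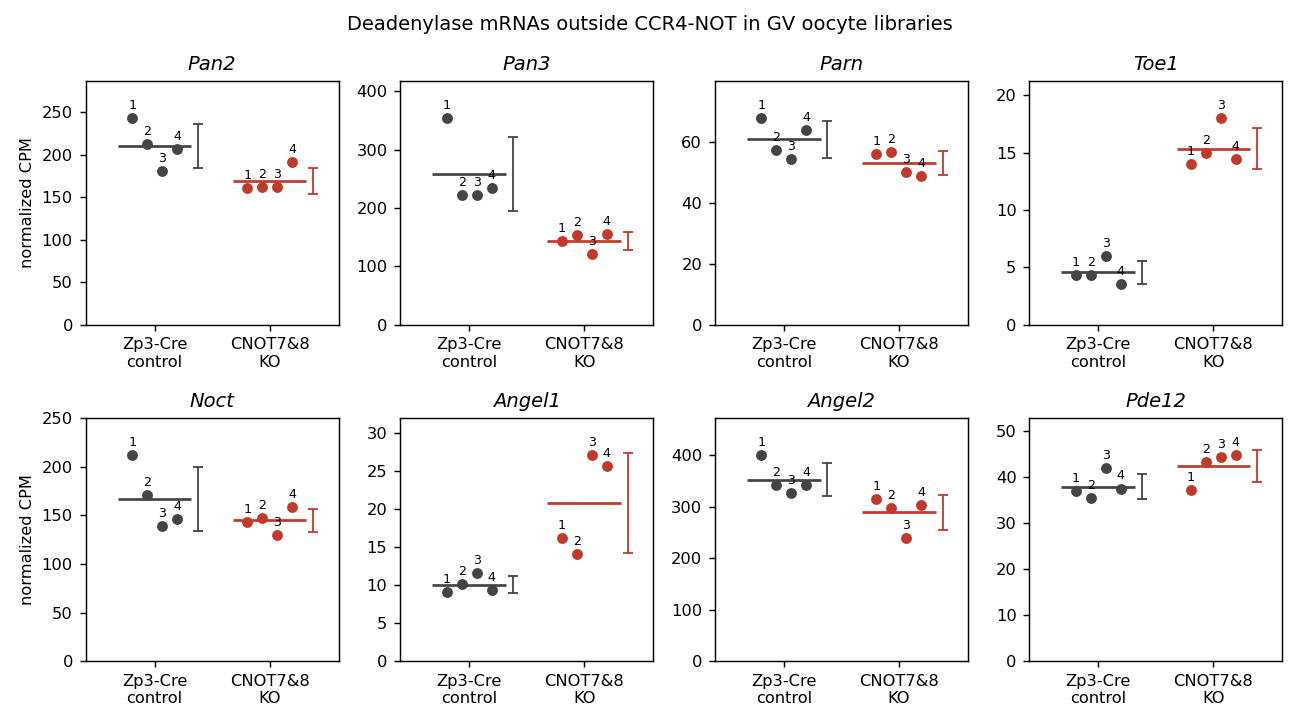
TMM-normalized CPM (linear axes from 0) of the 8 mRNAs in each library, with replicate numbers beside the points, means as horizontal lines and SD as error bars (n = 4 per group). The groups are apart for Pan3, Angel2, Angel1 and Toe1, and overlap for the other members.

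Pan2 and Pan3 form the deadenylase complex that is thought to shorten long tails first. Pan3 (ENSMUSG00000029647, plus strand of chromosome 5, 147430161 to 147548502 in GRCm38) had 354, 222, 223 and 235 CPM in control replicates 1 to 4 and 143, 153, 122 and 156 CPM in KO replicates 1 to 4. Every KO library lay below every control library, and control replicate 1 stood above the other 3. Means with SD over 4 libraries were 258 ± 64.2 CPM for control and 144 ± 15.6 CPM for KO, or -0.85 ± 0.16 on the log2 scale (SE; edgeR's quasi-likelihood test gave an adjusted p of 0.00073, and a two-sided exact permutation test p = 0.0286, the smallest p that 4 against 4 libraries allow). Without control replicate 1 the decrease was -0.66, and with library size as the only scaling it was -0.56 (adjusted p = 0.00444, same test). Pan3 was thus the member with the largest decrease, to 55.6% of the control mean, short of the 2-fold threshold.

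Pan2 (ENSMUSG00000005682, chromosome 10 from 128303335 to 128321358, plus strand), the catalytic subunit, had 243, 212, 180.4 and 207 CPM in the controls and 161, 162, 162 and 191 CPM in the KO libraries. The groups overlapped, since KO replicate 4 lay above control replicate 3. Means with SD over 4 libraries were 210.5 ± 25.7 CPM for control and 169 ± 14.8 CPM for KO, or -0.32 ± 0.12 on the log2 scale (SE; edgeR's quasi-likelihood test gave an adjusted p of 0.0342, and a two-sided exact permutation test p = 0.0571). The call was lost with upper quartile scaling and with library size only, where the log2 fold change of Pan2 was -0.029 (adjusted p = 0.817, same test).

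The ratio of the 2 subunits does not depend on library scaling. Per kilobase of exons, the Pan2 to Pan3 ratio of normalized CPM was 1.21, 1.69, 1.43 and 1.55 in control replicates 1 to 4 and 1.98, 1.86, 2.35 and 2.16 in KO replicates 1 to 4. Its means with SD over 4 libraries were 1.47 ± 0.202 for control and 2.09 ± 0.216 for KO, without overlap, so that Pan3 mRNA was lower relative to Pan2 mRNA in each KO library. The level of the ratio depends on the annotated length, at 1.04 and 1.48 with the longest coding transcript in place of all exons, whereas its change does not. The ratio of Pan2 to Parn, by contrast, overlapped between the groups, at 2.2 ± 0.141 in control and 2.05 ± 0.314 in KO (SD, n = 4).

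**Figure D2:**
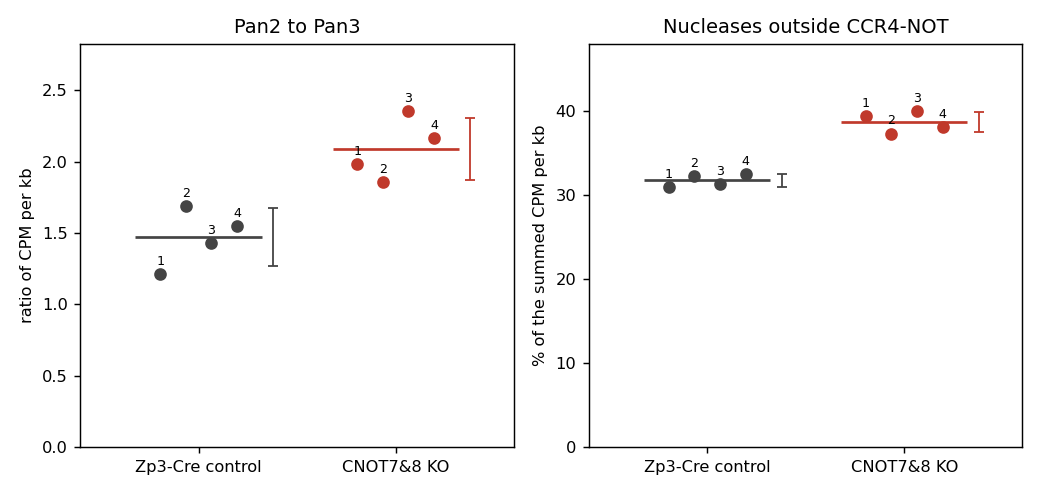
Left, the ratio of Pan2 to Pan3 in CPM per kilobase of exons, and right, the percentage that 7 nuclease genes outside CCR4–NOT take of the summed CPM per kilobase of 11 deadenylase genes. Points are libraries with their replicate numbers, lines are means and bars SD (n = 4 per group). Both quantities are higher in each KO library, with means of 1.47 and 2.09 on the left and 31.8% and 38.7% on the right. The 11 genes include the targeted Cnot7 and Cnot8, so the rise on the right includes the deletion itself.

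Parn (ENSMUSG00000022685, chromosome 16 from 13537960 to 13668170, minus strand) is a cap-binding poly(A)-specific ribonuclease that matures telomerase RNA and small nucleolar RNAs. It had 67.6, 57.2, 54.2 and 63.7 CPM in control and 55.8, 56.6, 50.1 and 48.8 CPM in KO libraries. The values overlapped, and the log2 fold change was -0.20 ± 0.12 (SE; adjusted p of 0.16 in edgeR's quasi-likelihood test), which turned to 0.08 with library size only. No change of Parn passed the test under any of the alternatives.

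Toe1 (ENSMUSG00000028688, chromosome 4 from 116794310 to 116807640, minus strand), a nuclease of Cajal bodies that trims small nuclear RNAs, had the largest change of the 8. It had 4.33, 4.34, 5.99 and 3.57 CPM in control and 14.01, 14.9, 18.0 and 14.5 CPM in KO libraries, from 49 to 162 and from 129 to 425 counts. The lowest KO library was thus well above the highest control library. The mean rose from 4.56 ± 1.02 CPM (SD, n = 4) to 15.4 ± 1.81 CPM (SD, n = 4), or 1.75 ± 0.19 on the log2 scale (SE; edgeR's quasi-likelihood test gave an adjusted p of 1.2e-05, and a two-sided exact permutation test p = 0.0286). Of its annotated exon bases, 40.7% (1212 bases) also lie in exons of Tesk2, a protein kinase gene on the opposite strand. Tesk2 rose as well, from 23.9 ± 6.58 to 50.8 ± 7.18 CPM (1.08 ± 0.18 on the log2 scale, SE, with an adjusted p of 0.000378 in the same test). The libraries were made with a stranded kit, but the strand setting of the counting is not given in the sources used here, so that reads of the 2 genes in the shared bases may not have been told apart.

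Among the EEP enzymes, Angel2 and Angel1 moved in opposite directions. Angel2 (ENSMUSG00000026634, chromosome 1 from 190925112 to 190946962, plus strand), the RNA cyclic phosphatase, had 400.3, 342, 327 and 341 CPM in control and 315, 297, 239.8 and 304 CPM in KO libraries. All KO values lay below all control values, by a narrow gap between 315 and 327 CPM. Means with SD over 4 libraries were 353 ± 32.6 CPM for control and 289 ± 33.6 CPM for KO, or -0.29 ± 0.11 on the log2 scale (SE; edgeR's quasi-likelihood test gave an adjusted p of 0.0495, and a two-sided exact permutation test p = 0.0286). This adjusted p was just inside the threshold, and of the alternatives only a fit without KO replicate 1, one without KO replicate 4 and one without both control replicate 1 and KO replicate 4 kept the call. With library size only the log2 fold change of Angel2 was -0.0041.

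Angel1 (ENSMUSG00000021257, chromosome 12 from 86700502 to 86726460, minus strand), whose protein binds the cap-binding translation factor eIF4E, had 9.14, 10.1, 11.6 and 9.32 CPM in control and 16.2, 14.1, 27.1 and 25.6 CPM in KO libraries. The groups did not overlap, and KO replicates 3 and 4 stood well above KO replicates 1 and 2. The mean rose from 10.04 ± 1.10 CPM (SD, n = 4) to 20.8 ± 6.56 CPM (SD, n = 4), or 1.06 ± 0.22 on the log2 scale (SE; edgeR's quasi-likelihood test gave an adjusted p of 0.00135, and a two-sided exact permutation test p = 0.0286). Without KO replicate 3 it was 0.93 and without KO replicate 4 it was 0.95, under the 2-fold threshold but past an adjusted p of 0.05 in both.

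Noct and Pde12 did not differ beyond the spread of the libraries. Noct (ENSMUSG00000023087, listed as Ccrn4l, chromosome 3 from 51224447 to 51251644, plus strand), whose mRNA follows the circadian clock in many tissues, had 212, 170.4, 139 and 147 CPM in control and 143, 147, 129.9 and 159 CPM in KO libraries. The KO values lay inside the range of the controls except for the lowest, and control replicate 1 was again the highest. The log2 fold change was -0.21 ± 0.14 (SE; adjusted p of 0.215 in edgeR's quasi-likelihood test) and turned to 0.08 with library size only. Pde12 (ENSMUSG00000043702, chromosome 14 from 26659958 to 26669883, minus strand) had 37.0, 35.5, 42.0 and 37.6 CPM in control and 37.4, 43.4, 44.3 and 44.9 CPM in KO libraries. In 3 of 4 KO libraries it was higher than in every control library, with a log2 fold change of 0.16 ± 0.12 (SE; adjusted p of 0.256 in the same test). With library size only, the increase of Pde12 was 0.45 and passed the test (adjusted p = 0.00958). Of its exon bases, 6.82% overlap exons of Arf4, a small GTPase gene on the opposite strand that rose from 3.92 ± 1.31 to 13.8 ± 1.82 CPM.

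**Figure D3:**
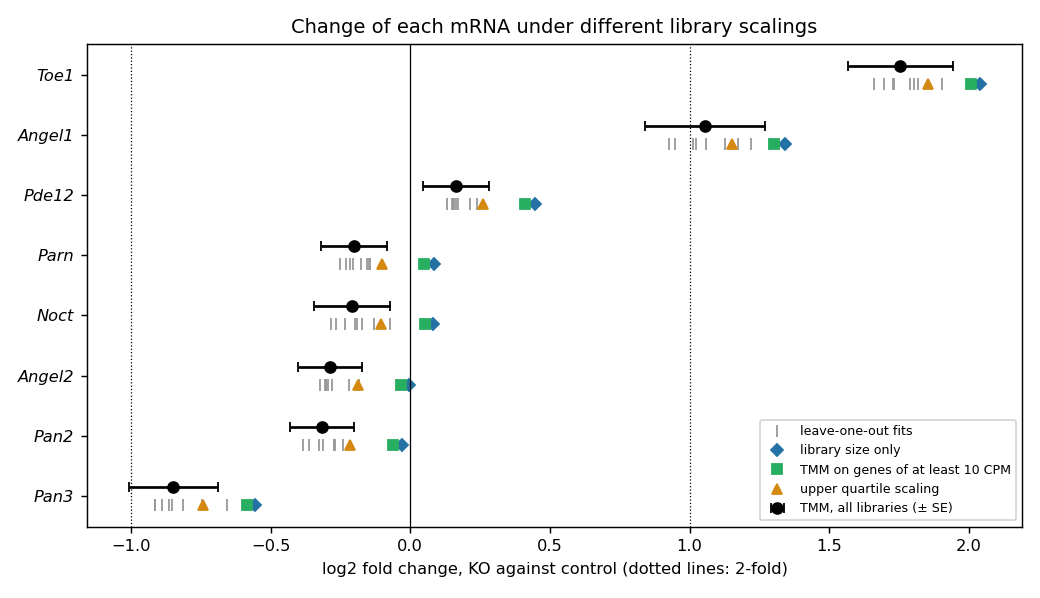
Log2 fold change of KO against control for the 8 mRNAs, with TMM scaling and standard error (black circles), and below each the fits without 1 library (gray ticks) and with 3 other scalings (colored symbols); dotted lines mark 2-fold. Toe1, Angel1 and Pan3 stay on their side of 0 in all fits shown, whereas Parn and Noct turn from -0.20 and -0.21 to 0.08 with library size only.

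TMM takes most genes as unchanged, whereas 31.2% of tested genes were called higher and 24.1% lower at an adjusted p of at most 0.05. Its factors were 0.849 to 0.943 in control and 1.07 to 1.14 in KO libraries. Dropping these factors moved the log2 fold changes of all tested genes up by a median of 0.29. TMM computed from genes with 10 CPM or more moved them up by 0.25. Upper quartile scaling moved them up by 0.10. With library size only, Toe1, Angel1 and Pde12 were higher and Pan3 alone was lower at an adjusted p of at most 0.05, 3 of 8 beside 40.2% of all genes and 1 of 8 beside 13.6%. By 2-fold, Toe1 and Angel1 were then higher, beside 29.3% of all genes, and no member was lower, beside 3.05%. The counts hold no external standard, so these data do not set the level per oocyte.

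Control replicate 1 was the highest control library for Pan2, Pan3, Parn, Noct and Angel2, and KO replicate 3 was the lowest KO library for Pan3, Noct and Angel2. Without control replicate 1 and KO replicate 4 together, Pan3 fell by 0.70, Toe1 rose by 1.76 and Angel1 by 0.89 on the log2 scale, all past an adjusted p of 0.05 in edgeR's quasi-likelihood test. The summed granulosa and blood cell marker levels were also higher in every KO library than in any control library, though not each marker was. The part of these sums in the members' values was not tested.

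Levels of different genes were compared as CPM per kilobase of annotated exons. In control oocytes, Angel2 was the most abundant member at 63.4 ± 5.87 CPM per kb, followed by Pan2 at 24.8 ± 3.03, Pan3 at 17.3 ± 4.29, Noct at 15.7 ± 3.07, Parn at 11.3 ± 1.13, Pde12 at 4.92 ± 0.362, Angel1 at 2.25 ± 0.247 and Toe1 at 1.53 ± 0.342 (SD, n = 4 each). The ranges of neighbors overlapped between Pan2 and Pan3 and between Pan3 and Noct, and the order of Noct and Parn turned with the longest coding transcript as length. The other neighbors did not overlap, from Angel2 above Pan2 down to Angel1 above Toe1. Angel2 stood at percentile 95.0 of tested genes by this measure, and Toe1 at 48.4. By the calls with TMM scaling, the 2 members that rose were thus the least abundant, and the 3 that passed the test as lower were the most abundant. With library size only, Pan2 and Angel2 did not pass the test. The median log2 fold change was 0.12 over all tested genes and -0.012 in the fit on genes of at least 1 CPM in 4 libraries. Whether change went with level over all genes was not tested.

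Angel2 alone reached the level of the targeted Cnot8, at 63.7 ± 7.59 CPM per kb in control, where Cnot7 had 160.3 ± 13.3, Cnot6l 35.6 ± 9.79 and Cnot6 7.23 ± 2.30 (SD, n = 4). With the longest coding transcript as length, control means were 94.9 for Angel2 and 79.9 for Cnot8. Pan2 (47.4) and Pan3 (46.6) then lay above Cnot6l (42.8). The sums and shares that follow use the length of all exons only. The 7 nuclease genes outside CCR4–NOT, Pan3 left out, summed to 124 ± 12.2 CPM per kb in control and 111 ± 6.65 in KO, with overlap. Angel2 made up 51.2% ± 0.555 of that sum in control and 46.9% ± 3.35 in KO. The 4 catalytic CCR4–NOT genes summed to 267 ± 32.8 CPM per kb in control and 175 ± 17.0 in KO. The share outside CCR4–NOT was therefore 31.8% ± 0.737 in control and 38.7% ± 1.203 in KO (SD, n = 4), a rise that includes the deletion itself. Against the untargeted Cnot6 and Cnot6l only, the share was 74.7% ± 3.15 in control and 74.4% ± 4.04 in KO, a difference within the spread of the libraries.

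**Figure D4:**
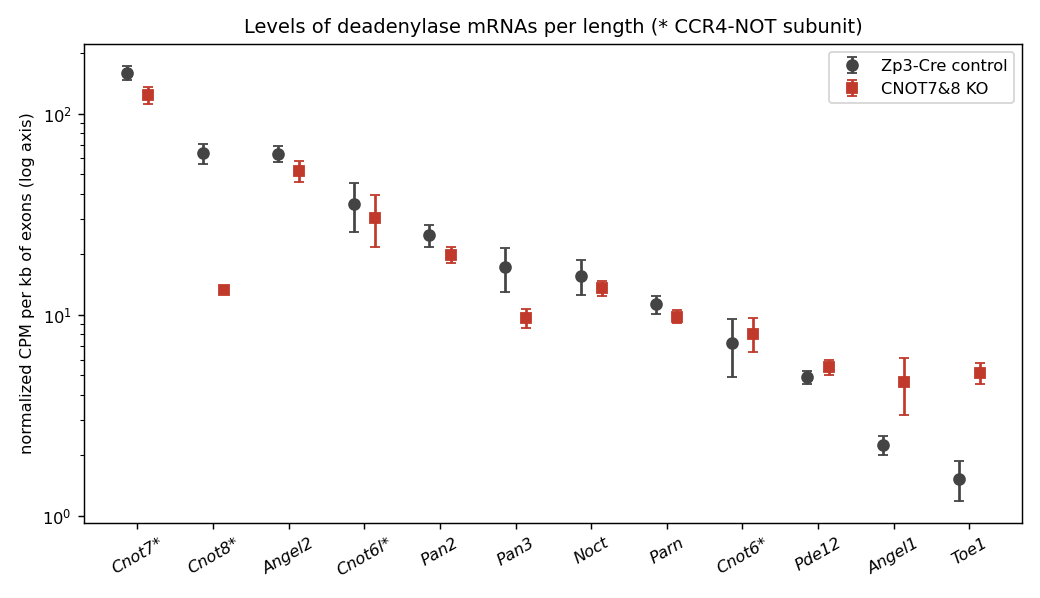
Mean normalized CPM per kilobase of exons (log axis) with SD (n = 4) for the 8 members and the 4 catalytic CCR4–NOT genes (asterisks), ordered by the control level. Toe1 and Angel1, lowest in control at 1.53 and 2.25, rise to 5.16 and 4.65 in KO, while Cnot8 drops from 63.7 to 13.3.

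The other genes of these pathways were read from lists, whose counts at an adjusted p of at most 0.05 stand beside 31.2% of all tested genes higher and 24.1% lower. List counts and medians are with TMM scaling only. Dropping its factors moved all tested genes up by a median of 0.29, and the lists were not counted under that setting. Of 12 CCR4–NOT subunits, 8 were lower, both targeted genes included, none was higher, and the median log2 fold change was -0.40. Past the 2-fold threshold were the targeted Cnot8 and Cnot10, a subunit of the N-terminal module, with 97.8 ± 9.52 CPM for control and 39.5 ± 4.30 CPM for KO (SD, n = 4; -1.31 on the log2 scale, adjusted p = 4.9e-06, edgeR's quasi-likelihood test). Cnot6 and Cnot6l, the EEP deadenylases of the complex, did not pass the test, at 0.16 and -0.22.

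Of 9 genes that can recruit PAN2-PAN3, the cytoplasmic poly(A)-binding proteins and the TNRC6 scaffold proteins of microRNA silencing, 8 were tested, of which 3 were higher and 2 lower, shares near those of all genes. Pabpc1l, the poly(A)-binding protein of oocytes, went from 167 ± 22.4 to 52.6 ± 8.78 CPM (SD, n = 4), a log2 change of -1.67, and Pabpc4 fell by 1.12, from 320.2 ± 12.2 to 148 ± 15.3 CPM. Tnrc6a rose by 1.62, from 23.3 ± 3.58 to 71.6 ± 8.58 CPM, and Pabpc1 by 1.27, from 11.2 ± 4.19 to 27.01 ± 8.13 CPM. Pabpc1 has processed pseudogenes that may take some of its reads. The third that rose, Tnrc6b, is named after its values were seen and changed by less than 2-fold (0.51).

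Of 14 genes of small noncoding RNA 3′ ends, where Parn and Toe1 act, 4 were higher, 4 lower and 6 did not pass the test, shares near those of all genes, with a median log2 fold change of -0.25. Wrap53, which brings RNAs to Cajal bodies, rose by 2.20 from 0.834 ± 0.353 to 4.05 ± 0.957 CPM (SD, n = 4). Dis3l2, an exonuclease of uridylated RNAs, fell by 1.16, and Gar1, a protein of H/ACA particles, fell by 1.07. The RNA component of telomerase, Terc, a substrate of Parn named after its values were seen, was at 1.41 ± 0.692 CPM in control and 2.06 ± 1.12 CPM in KO (adjusted p = 0.261, edgeR's quasi-likelihood test). Of 8 genes of mitochondrial RNA tails and decay, the setting of Pde12, 4 were lower and none higher, none by 2-fold, beside the same 24.1% and 31.2% of all genes, with a median of -0.39. Those 4 were named after their values were seen. They were the mitochondrial poly(A) polymerase Mtpap (-0.89), Lrpprc (-0.74), the oligoribonuclease Rexo2 (-0.73) and the helicase Supv3l1 (-0.42).

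**Figure D5:**
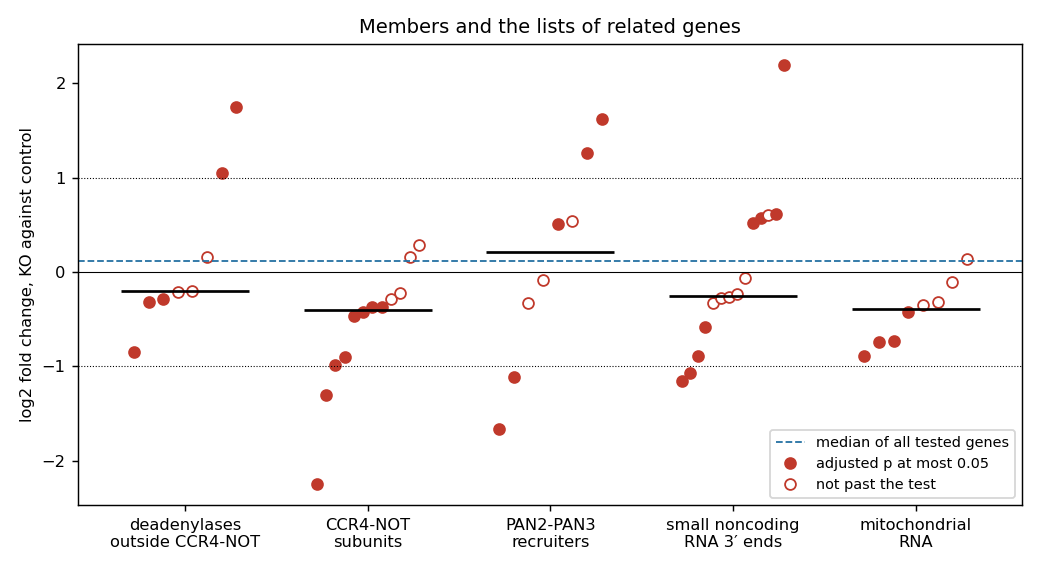
Log2 fold change of KO against control for tested genes of the members and 4 lists; filled points passed an adjusted p of 0.05, black lines are list medians and the dashed line is the median of all tested genes, 0.12. With TMM scaling, members range from -0.85 to 1.75, and no CCR4–NOT or mitochondrial gene passes the test as higher.

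The 3′UTR elements were set beside the changes. The 3 members that passed the test as lower, Pan3, Pan2 and Angel2, all carry TTTTAT, and the 2 that rose, Toe1 and Angel1, do not. This holds with TMM scaling, whereas with library size only Pde12, with 5 copies, was higher (0.45), and Pan2 and Angel2 were not past the test (-0.029 and -0.0041), nor were they with TMM on genes with 10 CPM or more, where Pde12 was again higher (0.41). Over all tested genes with a 3′UTR, the order was the other way, with a median log2 fold change of 0.098 in 8503 genes with the element and -0.079 in 6622 without. The pattern of the 8 is thus a description of these genes. ATTTA, the core of AU-rich elements, occurred in 5 of 8 members, with 20 copies in Pde12, and in 69.8% of all genes. TGTAAATA, the Pumilio-binding element, was found in none of the 8 and in 11.99% of all genes.

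Across the 8 libraries, the tested gene of at least 10 CPM with the most similar log2 CPM was Usp16 for Pan3 (Pearson's r = 0.999), Aasdhppt for Toe1 (r = 0.996), Dock5 for Pan2 (r = 0.989), Patl1 for Noct (r = 0.988), Kctd18 for Angel1 (r = 0.983), Srbd1 for Angel2 (r = 0.983), Per3 for Parn (r = 0.964) and Ino80c for Pde12 (r = 0.890). Each was the best of about 8727 genes over 8 libraries that share the group difference and depth. With the group means taken out, the same pairs had r from 0.888 for Pde12 to 0.994 for Pan3. Among the members themselves, Pan3 and Angel2 were closest (r = 0.914), then Pan2 and Pan3 (r = 0.899) and Angel1 and Toe1 (r = 0.891). With the group means taken out, these pairs had r = 0.831, 0.735 and 0.496, and the closest were Pan3 and Noct (r = 0.881) and Pan2 and Noct (r = 0.873). Control replicate 1 was the highest control library for Pan2, Pan3, Noct and Angel2, and its part in these r was not tested.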

How the data were processed

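RNA-seq libraries were grouped, and count columns matched, by genotype and replicate number in the labels. The authors mapped paired reads to GRCm38 with STAR v2.6.1d in nf-core/rnaseq and deposited raw counts per gene. The counter, annotation and strand setting are not given in the sources used here. The labels name a stranded total RNA kit and the methods a stranded mRNA kit, and both describe removal of ribosomal RNA.

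Genes with at least 0.2 CPM in 2 libraries (19241) were tested with edgeR 4.0.16 (R 4.3.3) by the quasi-likelihood test, TMM scaling and Benjamini-Hochberg adjustment over all of them. Standard errors are the log2 fold change over the root of F. On simulated counts for the 19241 genes, with 200 changed 4-fold (log2 change 2), 197 were recovered with 7 false calls. Recovery was not tested for smaller log2 fold changes, such as -0.32 for Pan2 and -0.29 for Angel2. It was also not tested with as many genes changed as were called here, 4582 higher and 1263 lower by 2-fold. Permutation tests enumerated 70 assignments. The shallowest library, KO replicate 1, gives 0.347 CPM for 3 counts, which covers counting error only. Any pair of replicates differed by more than sampling noise (chi-square per degree of freedom of at least 7.85).

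GENCODE vM21 (GRCm38) held 98.2% of the gene identifiers and supplied positions, lengths and 3′UTRs. The members and lists were chosen with earlier results of these data known. Named were the members, the catalytic CCR4–NOT genes, up to 4 genes per list past both thresholds, genes overlapping a member, and the gene most like each member. Alternatives were edgeR's exact test, DESeq2 1.42.0, other scalings (library size only, RLE, upper quartile, TMM from genes with 10 CPM or more), 2 other filters, the replicate number as a block and fits without 1 or 2 libraries; the other filters left 28353 and 13876 genes.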

Additional observations from a re-analysis of the deposited data

Results flagged for a closer look

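In 5 of 24 groups of 4 libraries, 1 library lay far from its 3 replicates (Dixon's Q at the 95% level). Chance flags about 1 in 20 independent groups, but the groups here are genes in the same libraries and are not independent. Among the members, Pan3 was flagged in control replicate 1, at 354 CPM where the others had 222 to 235. Pan2 was flagged in KO replicate 4, at 191 CPM where the others had 161 to 162. Among the CCR4–NOT deadenylases, control replicate 1 stood apart at 70.5 CPM for Cnot6 (38.9 to 42.2 in the others), at 516 CPM for Cnot6l (294 to 332) and at 1049 CPM for Cnot7 (886 to 900.2). Control replicate 1 is also the deepest library.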

How the results depend on the processing

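Over 18 alternatives, Pan3 stayed lower and Toe1 and Angel1 higher at an adjusted p of at most 0.05. Angel2 lost its call with edgeR's exact test (-0.29), DESeq2 (-0.27), library size only (-0.0041), RLE (-0.27), upper quartile scaling (-0.19), TMM on genes of at least 10 CPM (-0.035), no filter (-0.27), at least 1 CPM in 4 libraries (-0.22) and the replicate block (-0.29). Pan2 lost it with library size only (-0.029), upper quartile scaling (-0.22), TMM on genes of at least 10 CPM (-0.063), the filter of 1 CPM in 4 libraries (-0.25) and the replicate block (-0.31). With library size only and with TMM on genes of at least 10 CPM, Noct turned to 0.082 and 0.052, Parn to 0.084 and 0.051, and Pde12 passed the test at 0.45 and 0.41. The members lower at an adjusted p of 0.05 then numbered 1 in place of 3, as with upper quartile scaling, the stricter filter and the block. Members higher by 2-fold numbered 1 in place of 2 with the block, where Angel1 was at 0.998, and without control replicate 1 and KO replicate 4. Leaving out each library in turn gave log2 fold changes from 0.93 to 1.22 for Angel1, -0.32 to -0.18 for Angel2, -0.29 to -0.072 for Noct, -0.38 to -0.24 for Pan2, -0.91 to -0.66 for Pan3, -0.25 to -0.15 for Parn, 0.13 to 0.24 for Pde12 and 1.66 to 1.90 for Toe1, and from 1 to 3 members lower, 2 higher, and 1 to 2 higher by 2-fold. Angel2 lost its call on leaving out any library but KO replicate 1 or 4, and Pan2 any but control replicate 3 or KO replicate 4; the cause of these changes was not tested.

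Replicate numbers are shared by the groups, but same-numbered libraries did not deviate together (r = -0.072, -0.042, 0.11 and -0.12 for numbers 1 to 4), so the block is an alternative only. Of all pairs across the groups, control replicate 1 with KO replicate 4 had the highest r (0.37). Control replicate 1 with KO replicate 3 had the lowest (-0.33). With the block, 4316 genes were higher and 1254 lower by 2-fold over all tested genes, against 4582 and 1263. Toe1 and Angel1, at 49 to 162 and 128 to 342 counts per control library, rest on the fewest reads of the members.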
